A study of Mus musculus with 31 samples.

Results

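The histone deacetylase genes described here are Hdac1, Hdac2, Hdac3, Hdac4, Hdac5, Hdac6, Hdac7, Hdac8, Hdac9 and Hdac11, 10 of the 52636 gene identifiers measured in the caudate putamen (CPu), the dorsal part of the striatum. They were taken by gene symbol, as members of this family. A punch of the right CPu was taken from each of 31 female mice, 8 to 11 weeks old, and its RNA was sequenced. The mice were C57BL/6NTac-Brd1, either wild-type (WT) or Brd1+/-, which are heterozygous for a targeted deletion within Brd1, with litter-matched WT mice. Brd1 encodes a scaffold protein of histone acetyltransferase complexes, and deacetylases are the enzymes that oppose acetyltransferases. Mice of each genotype were injected under the skin on consecutive days with saline vehicle or imipramine (IMN), a tricyclic antidepressant, at 10 mg/kg, and all of them went through tail suspension, open field and forced swim testing before they were killed. The groups were WT vehicle (n = 8), Brd1+/- vehicle (n = 7), WT IMN (n = 8) and Brd1+/- IMN (n = 8). The behavioural testing is therefore shared by all 4 groups, and a punch holds every cell type of the tissue.

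Histone deacetylases remove acetyl groups from lysines of histone tails and of other proteins, and histone deacetylation is mostly associated with a closed chromatin and lower transcription. Class I enzymes (Hdac1, Hdac2, Hdac3 and Hdac8) are mainly nuclear, and the first 3 work within corepressor complexes. Class IIa enzymes (Hdac4, Hdac5, Hdac7 and Hdac9) have little catalytic activity of their own, bind MEF2 transcription factors, and move between nucleus and cytoplasm when kinases phosphorylate them and 14-3-3 proteins bind them, which in neurons links them to synaptic activity. Hdac6, of class IIb, is mostly cytoplasmic and deacetylates tubulin, and Hdac11 is the sole enzyme of class IV. In striatum, class I and class IIa enzymes have been studied for their part in responses to drugs and stress.

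Expression is given in TPM, which corrects the reads of a gene for its length and makes the genes of every mouse add up to about the same total, so levels of different genes can be set side by side. The number of reads behind a TPM value is unknown, and each value is judged against the spread between mice. Brd1 itself was at 22.5 ± 2.97 TPM (SD, n = 8) in WT vehicle and 13.4 ± 2.02 TPM (SD, n = 7) in Brd1+/- vehicle mice. It was at 19.9 ± 2.67 TPM (SD, n = 8) in WT IMN and 12.8 ± 1.04 TPM (SD, n = 8) in Brd1+/- IMN mice. The genotypes did not overlap under either treatment. The 12 markers of striatal medium spiny neurons, among them Drd1, Drd2 and Adora2a, were above 0.1 TPM in every mouse, and so were 9 of the 12 markers of cortical excitatory neurons, such as Slc17a7. The summed cortical markers ranged from 133.6 to 2881 TPM in WT vehicle mice (median 1925) and from 138.1 to 404.5 TPM in Brd1+/- vehicle mice (median 286.0). They ranged from 121.2 to 1591 TPM in WT IMN mice (median 202.1) and from 120.5 to 580.1 TPM in Brd1+/- IMN mice (median 253.7). WT vehicle mice 1, 2, 3, 4, 5 and 7 were high and mice 6 and 8 low. WT vehicle mouse 2 stood apart with striatal markers summing to 322.1 TPM, against a median of 4391 TPM in its group and at least 5554 TPM in every mouse of the other groups. WT vehicle mouse 7, labelled female like the others, had 26.8 TPM of 4 Y-linked genes summed, against at most 0.188 TPM in any other mouse. Results are therefore also given with these mice left out and with the marker scores as covariates. In bulk tissue, fewer cells of a type and less RNA per cell cannot be told apart.

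All 10 genes were expressed, each above 0.1 TPM in every mouse. In the mean over the 31 mice, Hdac11 was at 110.8 TPM and Hdac5 at 110.3 TPM, followed by Hdac2 at 62.0, Hdac3 at 59.1, Hdac6 at 32.5, Hdac7 at 18.0, Hdac4 at 13.6, Hdac1 at 10.6, Hdac8 at 7.99 and Hdac9 at 5.77 TPM. Hdac5 exceeded Hdac2, and Hdac3 exceeded Hdac6, in 31 of 31 mice. The order of Hdac11 and Hdac5, of Hdac2 and Hdac3, and of Hdac8 and Hdac9 depended on the group. Hdac11 exceeded Hdac5 in 8 of 8 Brd1+/- IMN mice, without overlap of their levels, but in 2 of 7 Brd1+/- vehicle mice and 19 of 31 mice in all. Hdac2 exceeded Hdac3 in 8 of 8 WT IMN mice, but in 3 of 8 WT vehicle mice and 21 of 31 in all. Class IIa genes together made up 36.8% ± 2.18 (SD, n = 8) of the summed TPM of the 10 genes in WT vehicle, 34.3% ± 2.74 (SD, n = 7) in Brd1+/- vehicle, 33.9% ± 3.74 (SD, n = 8) in WT IMN and 31.1% ± 1.45 (SD, n = 8) in Brd1+/- IMN mice. Class I genes made up 31.5% ± 3.07, 33.5% ± 3.08, 32.8% ± 1.77 and 33.0% ± 1.60 in the same order. The summed level of the 10 genes was 500.2 ± 80.8 TPM in WT vehicle, 394.1 ± 47.2 TPM in Brd1+/- vehicle, 426.7 ± 22.6 TPM in WT IMN and 397.3 ± 20.4 TPM in Brd1+/- IMN mice. Within groups, Hdac9 varied most between mice, with a coefficient of variation of 42.0% to 61.6%, and Hdac2 had the lowest of the 10 genes in WT vehicle mice (9.28%) and in WT IMN mice (4.94%), but not in the Brd1+/- groups. The most even values were those of Hdac11 in Brd1+/- IMN mice, at 4.15%.

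**Figure D1:**
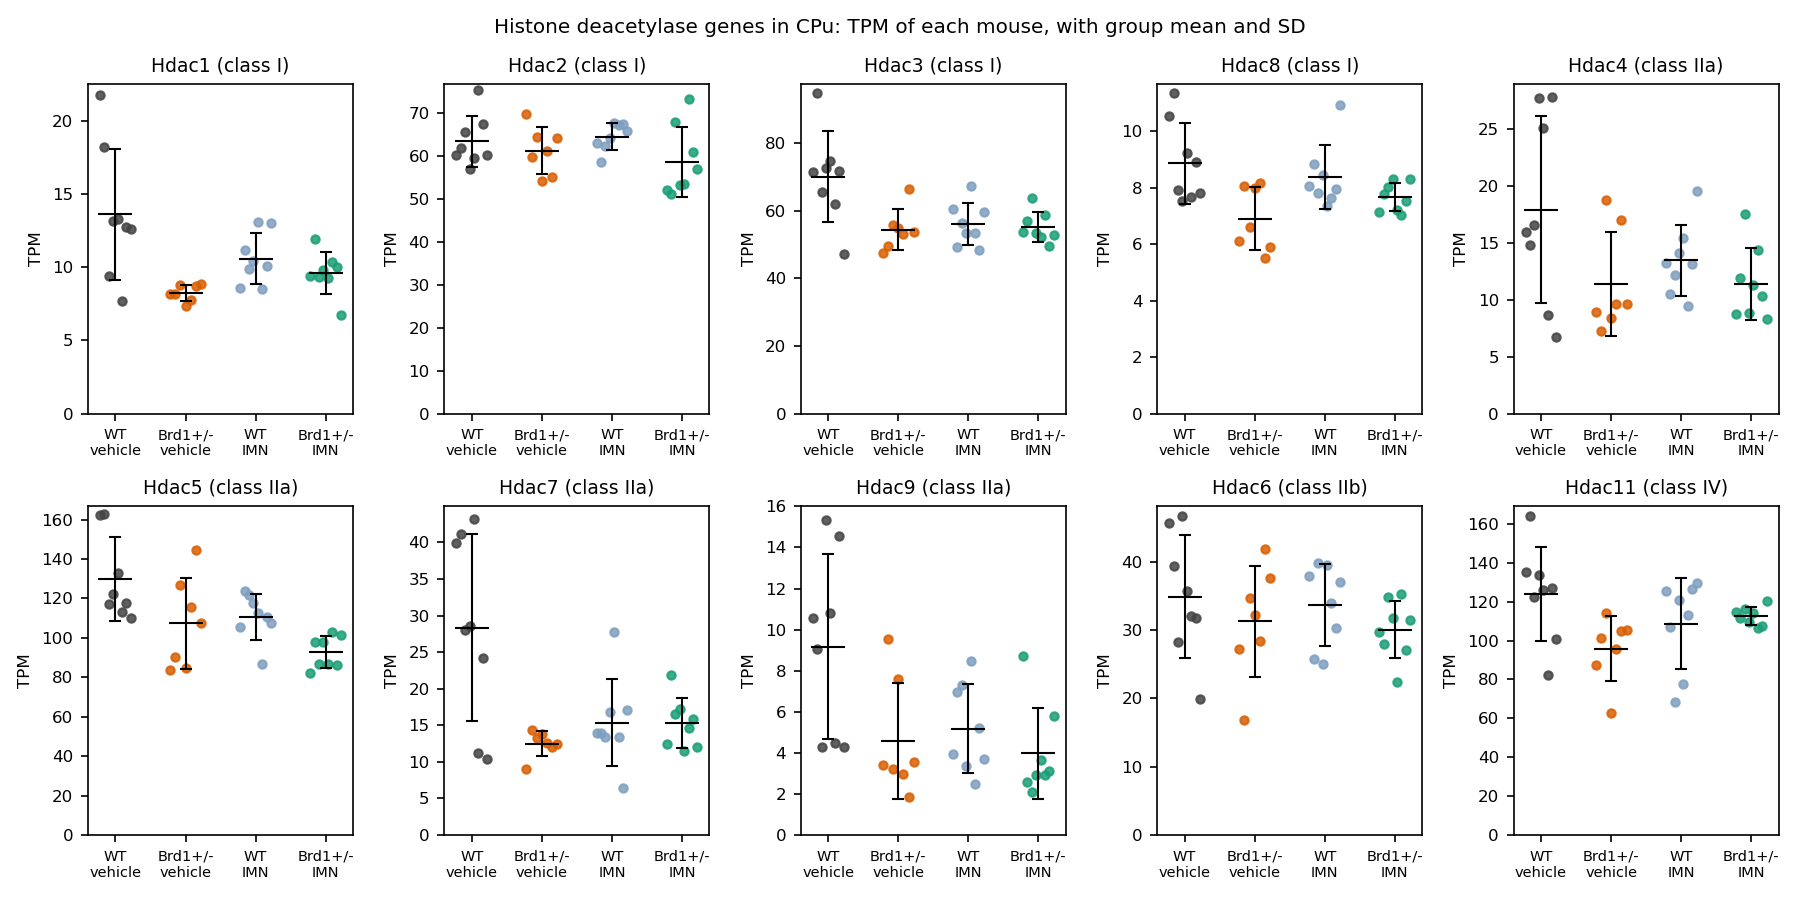
TPM (vertical axis, from 0, with its own scale in each panel) of each of the 10 histone deacetylase genes, with 1 point per mouse and the mean and SD of each group as a bar and whiskers. WT vehicle mice are the most spread group for Hdac1, Hdac3, Hdac4 and Hdac7, where 6 of 8 lie above every Brd1+/- vehicle mouse for Hdac7 and 7 of 8 for Hdac1.

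The sequence before the transcription start was examined for the genes with an entry in the RefSeq promoter table (GRCm38.p6), which were 8 of the 10, with 12 start sites. Hdac1 and Hdac3 had none. In the 250 bases before each start, 4 motifs were searched on both strands: the GC box GGGCGG, the CCAAT box CCAAT, the core TGACGT of the cAMP response element, and the binding motif of MEF2 factors, the partners of class IIa enzymes. GGGCGG was in 6 and CCAAT in 5 of the 12 windows, where 32.7% and 33.9% of 32851 windows of all genes hold them. TGACGT was in 0 of the 12 and in 6.47% of all windows. The MEF2 motif was in 1 window, that of Hdac5, and in 2.92% of all windows. Shown are Hdac5, the sole gene of these 8 with the MEF2 motif, Hdac7, which differed most between the genotypes under vehicle and whose window at the annotated gene start holds none of the 4 motifs, and Hdac2, which differed least with TPM as deposited, although not after scaling. Capitals mark the motifs found, and the strand is that of the gene. The windows are chr11:102230173-102230422 (minus strand) for Hdac5, chr15:97844503-97844752 (minus strand) for Hdac7 and chr10:36974294-36974543 (plus strand) for Hdac2. The capitals in the Hdac5 window are, in order, CCAAT read on the opposite strand at each of the first 2 places, the GC box on the opposite strand, and the MEF2 motif, and those in the Hdac2 window are a GC box on the opposite strand. A match is a description of the letters and shows no binding.
Hdac5: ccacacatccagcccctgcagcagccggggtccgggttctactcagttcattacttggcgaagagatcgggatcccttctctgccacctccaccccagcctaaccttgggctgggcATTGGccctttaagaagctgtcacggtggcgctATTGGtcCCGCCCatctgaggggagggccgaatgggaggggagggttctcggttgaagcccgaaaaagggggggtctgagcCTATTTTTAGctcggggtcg
Hdac7: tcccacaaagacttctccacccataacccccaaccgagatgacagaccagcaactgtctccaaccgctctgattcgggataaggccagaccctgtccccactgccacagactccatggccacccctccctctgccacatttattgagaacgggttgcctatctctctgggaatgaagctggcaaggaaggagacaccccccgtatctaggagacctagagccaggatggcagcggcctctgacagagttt
Hdac2: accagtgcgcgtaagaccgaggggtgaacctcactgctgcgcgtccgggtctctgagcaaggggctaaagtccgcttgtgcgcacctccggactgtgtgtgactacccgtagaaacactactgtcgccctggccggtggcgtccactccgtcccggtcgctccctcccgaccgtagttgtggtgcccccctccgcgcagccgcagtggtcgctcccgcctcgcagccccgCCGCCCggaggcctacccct

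Brd1+/- mice were first compared with WT mice under vehicle. Levels of Hdac1, Hdac7 and Hdac3 were lower in Brd1+/- mice at p under 0.01, to 60.7%, 44.1% and 77.7% of the WT mean, and no gene of the 10 was higher. The test was limma on log2(TPM + 1), fitted over 23200 genes, and differences below are on this scale. With TPM as deposited, all 10 estimates were below 0, as were 72.8% of those of all genes. With median-of-ratios or quantile scaling only 8 of 10 were, and Hdac2 and Hdac6 turned. The 3 genes called lower out of 10 stand against 12.1% of all genes called lower and 13.6% called in either direction, and 7 of 10 passed an unadjusted p of 0.05, against 30.9% of all genes. The study, with edgeR on counts, reported only Brd1 as lower after FDR correction between the genotypes under vehicle. At the FDR of 5% that the study also used, 0 of 10 and 0% of all genes passed here, so Brd1 was missed too. This depended on the filter, the fit and the mice. It was 2 of 10 and 10.5% of all genes with a mean of at least 1 TPM required, 5 of 10 and 19.5% with all 4 groups in one fit, and 6 of 10 and 29.5% with sample quality weights. Without WT vehicle mouse 6 an FDR of 5% was passed by Hdac1, Hdac3, Hdac7, Hdac9 and Hdac11, and without WT vehicle mouse 8 by Hdac1, Hdac3, Hdac7, Hdac8 and Hdac9, 5 of 10 each time. The calls over all genes rose as well, and 19.9% and 23.8% of them passed an FDR of 5% in these fits. The median difference over all genes was -0.13 as deposited and the median of the 10 genes was -0.35. Of all genes called at p under 0.01, 89.2% were lower in Brd1+/- mice with TPM as deposited and 57.8% with median-of-ratios scaling, a scaling that centres the median difference near 0. With the cortical marker score or the striatal marker score as a covariate, 0 of the 10 genes passed p under 0.01, against 2.23% and 1.47% of all genes, and with WT vehicle mouse 6 left out 5 did, against 19.9%.

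Under IMN the same comparison was made over 23339 genes. Hdac5 was lower in Brd1+/- mice, 1 of 10, against 0.514% of all genes called lower and 0.703% in either direction. It was also the sole gene of the 10 at an unadjusted p under 0.05, which 3.92% of all genes passed. At an FDR of 5%, 0 of 10 and 0.00428% of all genes passed. Estimates were below 0 for 8 of the 10 genes and for 63.25% of all genes, and above 0 for Hdac7 and Hdac11. The median was -0.14 against -0.03 over all genes. Hdac7 was at 0.05, Hdac11 at 0.08, Hdac3 at -0.02 and Hdac9 at -0.33. Median-of-ratios scaling left 0 of 10 called and put Hdac3 above 0 as well.

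IMN was then compared with vehicle within each genotype, which shares the vehicle mice with the first comparison. In WT mice, 0 of 10 genes passed p under 0.01 with limma, against 6.95% of 23579 genes. There were 4 that passed an unadjusted p of 0.05 (Hdac3, Hdac5, Hdac7 and Hdac9, all lower under IMN), against 23.1% of all genes. With WT vehicle mouse 8 left out, Hdac3 and Hdac7 passed p under 0.01 and an FDR of 5%, as did 15.3% and 10.5% of all genes. Hdac7 passed p under 0.01 without WT vehicle mouse 6 (13.6% of all genes), and Hdac3 and Hdac7 without WT IMN mouse 5 (10.3% of all genes), but not an FDR of 5%. In Brd1+/- mice, 0 of 10 passed p under 0.01 with limma, against 1.83% of 23020 genes, and Hdac11, higher under IMN, was the 1 gene at an unadjusted p under 0.05, against 7.09% of all genes. The other differences in WT mice were -0.29 for Hdac1, -0.28 for Hdac4, -0.22 for Hdac5, -0.20 for Hdac11, -0.07 for Hdac8, -0.03 for Hdac6 and 0.03 for Hdac2, of which Hdac8 and Hdac6 turned with median-of-ratios scaling. Those in Brd1+/- mice were 0.25 for Hdac7, 0.18 for Hdac1, 0.14 for Hdac8, 0.04 for Hdac4, 0.02 for Hdac3, -0.02 for Hdac6, -0.07 for Hdac2, -0.13 for Hdac9 and -0.19 for Hdac5. The exact permutation test called 0 genes in WT mice and Hdac11 in Brd1+/- mice. That test was not run over all genes, so no share of all genes can be set beside this call. At an FDR of 5%, 0 of 10 passed in either genotype, where 0.00424% of all genes did in WT and 0% in Brd1+/- mice. In WT mice it was 2 of 10 and 9.02% of all genes with all 4 groups in one fit, and 3 of 10 and 20.6% with sample quality weights.

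**Figure D2:**
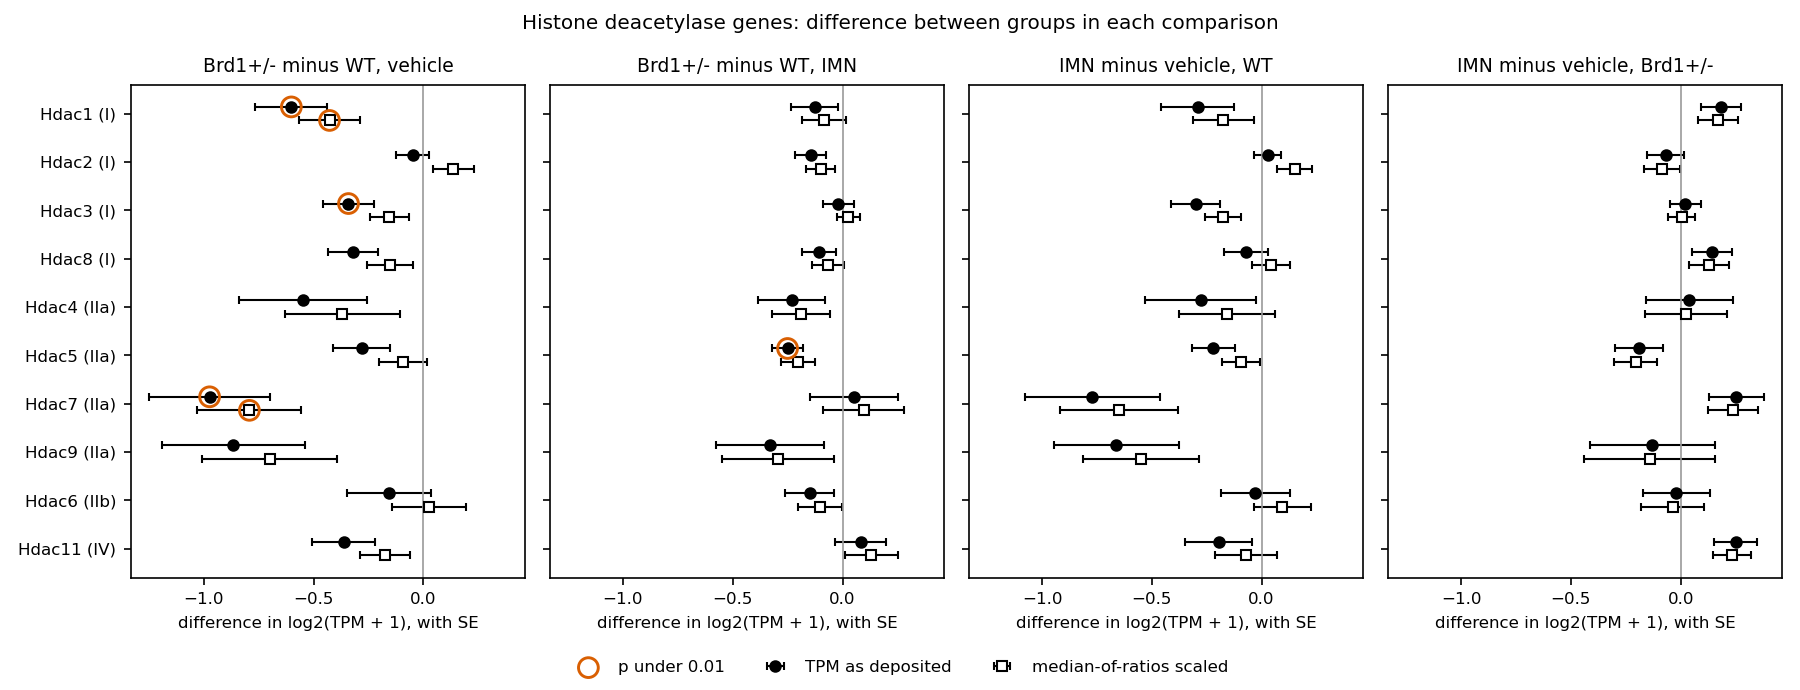
Difference in log2(TPM + 1) between groups (horizontal axis, whiskers 1 SE) for each gene in the 4 pairwise comparisons, with filled circles for TPM as deposited, open squares for median-of-ratios scaling and orange rings at p under 0.01. The vehicle panel has rings at Hdac1, Hdac3 and Hdac7, of which the one at Hdac3 is absent after scaling, where Hdac2 and Hdac6 lie above 0, and the IMN panel has a ring at Hdac5 for TPM as deposited only.

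Hdac1 (chr4:129516104-129542713, minus strand), with Hdac2 the catalytic subunit of the Sin3, NuRD and CoREST complexes, ranged from 7.72 to 21.8 TPM in WT vehicle mice (median 13.0), from 7.38 to 8.87 in Brd1+/- vehicle mice (median 8.21), from 8.50 to 13.1 in WT IMN mice (median 10.3) and from 6.74 to 11.9 in Brd1+/- IMN mice (median 9.62). Of the 8 WT vehicle mice, 7 were above every Brd1+/- vehicle mouse, and the exception, mouse 6, lay among them, so the groups overlapped by 1 mouse. The difference was -0.60 ± 0.16 (SE, limma, adjusted p = 0.0556), or -0.47 relative to the median of all genes, and the exact permutation test gave p = 0.00295. In limma it kept p under 0.01 with each of the 15 mice left out in turn (-0.70 to -0.50) and with median-of-ratios scaling (-0.43, limma, adjusted p = 0.1), but not with quantile normalization (-0.39) or the striatal marker score (-0.32), nor with the cortical marker score as a covariate, which gave -0.38 (limma, adjusted p = 0.527). Under IMN the genotypes overlapped widely and differed by -0.13 ± 0.11 (SE, limma, adjusted p = 0.998). Hdac1 has a processed copy in the genome, Gm10093, at 5.45 ± 1.73 TPM in WT vehicle and 3.58 ± 0.35 TPM in Brd1+/- vehicle mice. Reads of the copy and of Hdac1 can be assigned to either, so the level of Hdac1 is uncertain to that extent.

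Hdac2 (chr10:36974544-37001889, plus strand), the partner of Hdac1 and a known brake on memory formation, was at 63.5 ± 5.89 TPM (SD, n = 8) in WT vehicle, 61.3 ± 5.50 TPM (SD, n = 7) in Brd1+/- vehicle, 64.6 ± 3.19 TPM (SD, n = 8) in WT IMN and 58.7 ± 8.09 TPM (SD, n = 8) in Brd1+/- IMN mice. All 4 groups overlapped. The genotype difference under vehicle was -0.05 ± 0.07 (SE, limma, adjusted p = 0.68), and with median-of-ratios scaling 0.14 ± 0.09 (SE, limma, adjusted p = 0.409). Under IMN it was -0.15 ± 0.07 (SE, limma, adjusted p = 0.998), and it passed p under 0.01 when Brd1+/- IMN mouse 6, the highest of all IMN mice, was left out (-0.19, limma, adjusted p = 0.981).

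Hdac3 (chr18:37935844-37955016, minus strand), the catalytic subunit of the NCoR/SMRT complex, ranged from 47.2 to 95.05 TPM in WT vehicle mice (median 71.7), from 47.4 to 66.5 in Brd1+/- vehicle mice (median 53.8), from 48.4 to 67.3 in WT IMN mice (median 55.0) and from 49.5 to 63.8 in Brd1+/- IMN mice (median 53.6). The highest value belonged to WT vehicle mouse 2, whose striatal markers were low, and the lowest to WT vehicle mouse 8. The genotype difference under vehicle was -0.34 ± 0.12 (SE, limma, adjusted p = 0.0725), or -0.21 relative to all genes, and the exact permutation test gave p = 0.0146. It passed p under 0.01 in only 3 of 15 fits with a mouse left out, those without WT vehicle mouse 6 or 8 or Brd1+/- vehicle mouse 6, and without WT vehicle mouse 2 it was -0.28 (limma, adjusted p = 0.111). It did not pass with median-of-ratios scaling (-0.15, limma, adjusted p = 0.329) or with the cortical marker score (-0.14, limma, adjusted p = 0.705). IMN differed from vehicle in WT mice by -0.30 ± 0.11 (SE, limma, adjusted p = 0.151), and by -0.18 (limma, adjusted p = 0.241) with median-of-ratios scaling.

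Hdac8 (chrX:102284639-102505359, minus strand), a class I enzyme that works outside these complexes and deacetylates cohesin, was at 8.87 ± 1.43 TPM (SD, n = 8) in WT vehicle and 6.91 ± 1.13 TPM (SD, n = 7) in Brd1+/- vehicle mice. In Brd1+/- vehicle mice the values fell into 4 mice between 5.52 and 6.60 TPM, below every WT vehicle mouse, and 3 mice between 7.97 and 8.18 TPM, within the WT range. The difference was -0.32 ± 0.11 (SE, limma, adjusted p = 0.081), and -0.15 (limma, adjusted p = 0.421) with median-of-ratios scaling, and it passed p under 0.01 without Brd1+/- vehicle mouse 2 or 5, both from the higher 3. Under IMN, WT mice were at 8.38 ± 1.13 TPM (SD, n = 8) and Brd1+/- mice at 7.67 ± 0.51 TPM (SD, n = 8), a difference of -0.11 ± 0.08 (SE, limma, adjusted p = 0.998). WT IMN mouse 8, at 10.9 TPM, was far above the other WT IMN mice, which reached 8.83 TPM.

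Among class IIa genes, Hdac7 (chr15:97792664-97844502, minus strand), best known from thymocytes and blood vessels, had the largest genotype difference of the 10 genes under vehicle with TPM as deposited, and Hdac9 had it with either marker score as a covariate. It ranged from 10.4 to 43.1 TPM in WT vehicle mice (median 28.3), from 9.09 to 14.4 in Brd1+/- vehicle mice (median 12.6), from 6.47 to 27.7 in WT IMN mice (median 13.96) and from 11.5 to 21.9 in Brd1+/- IMN mice (median 15.2). The 6 WT vehicle mice with high cortical markers were at 24.2 TPM or more, above every Brd1+/- vehicle mouse, and mice 6 and 8, with low cortical markers, were at 11.3 and 10.4 TPM, within the Brd1+/- range. The difference was -0.97 ± 0.28 (SE, limma, adjusted p = 0.0556), or -0.84 relative to all genes, and the exact permutation test gave p = 0.00886. It passed p under 0.01 with each of the 15 mice left out (-1.15 to -0.87), with median-of-ratios scaling (-0.79, limma, adjusted p = 0.0934) and with quantile normalization (-0.78, limma, adjusted p = 0.0912). With the cortical marker score as a covariate it no longer passed, at -0.35 ± 0.13 (SE, limma, adjusted p = 0.466). IMN differed from vehicle by -0.77 ± 0.31 (SE, limma, adjusted p = 0.165) in WT mice and by 0.25 ± 0.13 (SE, limma, adjusted p = 0.723) in Brd1+/- mice, and under IMN the genotypes were at 15.3 ± 5.96 TPM (SD, n = 8) and 15.3 ± 3.42 TPM (SD, n = 8).

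Hdac5 (chr11:102194432-102230166, minus strand), the class IIa enzyme with the highest level here and known from cocaine and stress responses in the striatum, ranged from 110.1 to 162.9 TPM in WT vehicle mice (median 119.9), from 83.6 to 144.4 in Brd1+/- vehicle mice (median 107.4), from 86.6 to 123.6 in WT IMN mice (median 111.5) and from 82.1 to 103.0 in Brd1+/- IMN mice (median 92.3). Under IMN, 7 of 8 WT mice were above every Brd1+/- mouse, and the exception was WT mouse 6, at 86.6 TPM. The difference under IMN was -0.25 ± 0.07 (SE, limma, adjusted p = 0.998), the exact permutation test gave p = 0.00559, and Brd1+/- mice were at 83.8% of the WT mean. Leaving out each of the 16 mice kept it at p under 0.01 (-0.30 to -0.23), and so did the cortical marker score as a covariate (-0.25, limma, adjusted p = 0.99). It did not pass in the following fits. Median-of-ratios scaling gave -0.20 (limma, adjusted p = 0.99998), quantile normalization -0.20 (limma, adjusted p = 0.9999) and a fit of all 4 groups -0.25 (limma, adjusted p = 0.99998). With mouse number as a block the difference was -0.25 (limma, adjusted p = 0.9988). Under vehicle, where 4 of 7 Brd1+/- mice were below every WT mouse, the difference was of similar size but less even, -0.28 ± 0.13 (SE, limma, adjusted p = 0.154), and -0.09 (limma, adjusted p = 0.659) with median-of-ratios scaling.

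Hdac4 (chr1:91928779-92195699, minus strand), needed for synaptic plasticity and memory, ranged from 6.72 to 27.8 TPM in WT vehicle mice (median 16.2) and from 7.21 to 18.7 TPM in Brd1+/- vehicle mice (median 9.59). Within both vehicle groups the values were far apart, with WT mice 4, 5 and 7 above 25 TPM and Brd1+/- mice 3 and 6 above 17 TPM, and the difference of -0.55 ± 0.29 (SE, limma, adjusted p = 0.213) did not exceed this spread. It was -0.04 with the cortical marker score as a covariate. With sample quality weights it was -0.91 (limma, adjusted p = 0.0125) and passed p under 0.01, as did 26.5% of all genes in that fit. IMN mice were at 13.4 ± 3.10 TPM (SD, n = 8) for WT and 11.4 ± 3.19 TPM (SD, n = 8) for Brd1+/- (limma, adjusted p = 0.998).

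Hdac9 (chr12:34047580-34917095, minus strand), which also yields a form without the deacetylase domain that represses MEF2 targets, had the lowest mean of the 10 genes over the 31 mice, although not in WT vehicle mice, where Hdac8 was lower. It ranged from 4.27 to 15.3 TPM in WT vehicle mice (median 9.81), from 1.86 to 9.54 in Brd1+/- vehicle mice (median 3.40), from 2.46 to 8.47 in WT IMN mice (median 4.56) and from 2.09 to 8.73 in Brd1+/- IMN mice (median 3.03). Of the 7 Brd1+/- vehicle mice, 5 were below every WT vehicle mouse, and mice 2 and 4 were within the WT range. The difference was -0.87 ± 0.32 (SE, limma, adjusted p = 0.0916), and it passed p under 0.01 when WT vehicle mouse 3, 6 or 8 or Brd1+/- vehicle mouse 2 or 4 was left out. With the cortical marker score it was -0.39 (limma, adjusted p = 0.751). IMN differed from vehicle in WT mice by -0.66 ± 0.28 (SE, limma, adjusted p = 0.184).

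Hdac6 (chrX:7930120-7947889, minus strand), the tubulin deacetylase, was at 34.9 ± 8.96 TPM (SD, n = 8) in WT vehicle, 31.3 ± 8.15 TPM (SD, n = 7) in Brd1+/- vehicle, 33.7 ± 5.99 TPM (SD, n = 8) in WT IMN and 30.1 ± 4.23 TPM (SD, n = 8) in Brd1+/- IMN mice. The groups overlapped in every comparison, and none of the 4 pairwise tests passed an unadjusted p of 0.05. The genotype difference under IMN was -0.15 ± 0.11 (SE, limma, adjusted p = 0.998). The other class IIb gene, Hdac10, is not among the 10 genes and was named after its values were seen. It was at 9.46 ± 3.94 TPM in WT vehicle, 4.14 ± 0.40 TPM in Brd1+/- vehicle, 5.43 ± 1.27 TPM in WT IMN and 5.45 ± 1.31 TPM in Brd1+/- IMN mice.

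Hdac11 (chr6:91156665-91174692, plus strand), an enzyme that removes longer fatty acyl groups and is abundant in brain, ranged from 82.3 to 164.2 TPM in WT vehicle mice (median 126.4), from 62.6 to 114.3 in Brd1+/- vehicle mice (median 101.4), from 68.7 to 129.7 in WT IMN mice (median 117.2) and from 106.5 to 120.2 in Brd1+/- IMN mice (median 113.1). Under vehicle 6 of 8 WT mice were above every Brd1+/- mouse, the exceptions again being mice 6 and 8. The genotype difference was -0.36 ± 0.14 (SE, limma, adjusted p = 0.103), and -0.18 (limma, adjusted p = 0.385) with median-of-ratios scaling, and it passed p under 0.01 without WT vehicle mouse 6 (-0.44). In Brd1+/- mice, IMN was higher than vehicle by 0.25 ± 0.10 (SE, limma, adjusted p = 0.622), with 6 of 7 vehicle mice below every IMN mouse (exact permutation test, p = 0.00295). In WT mice the difference was -0.20 ± 0.15 (SE, limma, adjusted p = 0.449).

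Fitted over all 31 mice and 25394 genes with treatment in the model, Hdac5, Hdac1, Hdac8 and Hdac9 were lower in Brd1+/- mice at p under 0.01, 4 of 10 against 9.33% of all genes called lower and 10.1% in either direction. The differences were -0.27 ± 0.07 for Hdac5 (SE, limma, adjusted p = 0.071), -0.36 ± 0.11 for Hdac1 (SE, limma, adjusted p = 0.0724), -0.21 ± 0.07 for Hdac8 (SE, limma, adjusted p = 0.0781) and -0.59 ± 0.21 for Hdac9 (SE, limma, adjusted p = 0.0961). Differences of the other genes were -0.44 for Hdac7, -0.38 for Hdac4, -0.17 for Hdac3, -0.15 for Hdac6, -0.13 for Hdac11 and -0.10 for Hdac2. An unadjusted p under 0.05 was reached by 7 of 10 genes and 24.9% of all genes, and an FDR of 5% by 0 of 10 and 0.00394% of all genes. All 10 estimates were below 0, as were 71.9% of those of all genes. With median-of-ratios or quantile scaling 9 of 10 were, and Hdac2 turned. With median-of-ratios scaling only Hdac1 passed p under 0.01 (-0.25, limma, adjusted p = 0.173), and quantile normalization left 0, against 5.64% and 5.74% of all genes. With the cortical or the striatal marker score as a covariate only Hdac5 passed (-0.23, limma, adjusted p = 0.223, and -0.19, limma, adjusted p = 0.43), against 3.80% and 2.31% of all genes. Hdac9 was lost without WT vehicle mouse 7 (-0.53, limma, adjusted p = 0.149) and without WT vehicle mouse 2 (-0.57, limma, adjusted p = 0.135).

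For IMN against vehicle over the 31 mice, Hdac5 was lower under IMN, 1 of 10 against 4.18% of all genes called lower and 5.49% in either direction. The difference was -0.20 ± 0.07 (SE, limma, adjusted p = 0.174), and it did not pass p under 0.01 without WT vehicle mouse 2 (-0.18, limma, adjusted p = 0.272) or with median-of-ratios scaling (-0.15, limma, adjusted p = 0.287). The other differences were -0.40 for Hdac9, -0.28 for Hdac7, -0.14 for Hdac3, -0.12 for Hdac4, -0.06 for Hdac1, -0.02 for Hdac6 and for Hdac2, 0.02 for Hdac11 and 0.03 for Hdac8, of which Hdac2 and Hdac6 turned with median-of-ratios scaling. Hdac5 was also the 1 gene at an unadjusted p under 0.05, which 16.5% of all genes passed, and an FDR of 5% was reached by 0 of 10 and 0.421% of all genes.

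The interaction asks whether the effect of IMN differed between the genotypes. Hdac7 passed p under 0.01, with a difference of 1.03 ± 0.35 (SE, limma, adjusted p = 0.261). The IMN difference was -0.77 in WT and 0.25 in Brd1+/- mice, neither past p under 0.01 alone. This was 1 of 10 genes against 2.97% of all genes called higher and 3.74% in either direction. It passed again with median-of-ratios scaling, at 0.89 (limma, adjusted p = 0.292), but not without WT vehicle mouse 2, at 0.93 (limma, adjusted p = 0.366), with the cortical marker score, at 0.52 (limma, adjusted p = 0.808), or with the striatal one, at 0.49 (limma, adjusted p = 0.999). Hdac1, Hdac3 and Hdac11 had interactions of 0.47, 0.32 and 0.45 at an unadjusted p under 0.05, which with Hdac7 makes 4 of 10 genes against 16.2% of all genes. The others were 0.53 for Hdac9, 0.32 for Hdac4, 0.21 for Hdac8, 0.03 for Hdac5, 0.01 for Hdac6 and -0.10 for Hdac2, of which Hdac5 and Hdac6 turned with median-of-ratios scaling. At an FDR of 5%, 0 of 10 and 0% of all genes passed.

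Because the cortical markers were high in 6 of 8 WT vehicle mice, each gene was correlated with the marker scores across mice, after the group means were subtracted. A score is the mean log2(TPM + 1) of the 12 markers of a list, and 20 correlations were tested, 10 genes with 2 scores, by 100000 permutations of the mice within groups. Hdac7 followed the cortical score most closely, with Pearson's r = 0.83 over 31 mice (permutation p = 2e-05, adjusted p = 0.0004) and Spearman's rho = 0.73 (permutation p = 9e-05, adjusted p = 0.00107). It was 0.71 without the 2 mice farthest from the median of the score and 0.68 in the 23 mice of the other 3 groups (permutation p = 0.00117, adjusted p = 0.0078), and it was positive within each of the 4 groups, from 0.55 to 0.94. Hdac3 had r = 0.64 (permutation p = 0.0007, adjusted p = 0.00467) with rho = 0.57 (permutation p = 0.00204, adjusted p = 0.00816). Hdac1 had r = 0.58 (permutation p = 0.0104, adjusted p = 0.0231) with rho = 0.57 (permutation p = 0.00286, adjusted p = 0.00953), and Hdac4 had r = 0.57 (permutation p = 0.0049, adjusted p = 0.0163) with rho = 0.45 (permutation p = 0.0126, adjusted p = 0.0359). Without the 2 farthest mice these were 0.50, 0.51 and 0.32, and in the 23 other mice 0.40, 0.55 and 0.24, none at an adjusted p under 0.05. Within Brd1+/- IMN mice r was -0.35 for Hdac3 and -0.07 for Hdac4, and it was positive for both within the other 3 groups. For Hdac1 it was 0.02 to 0.61 within the groups. Hdac2 had r = -0.25 (permutation p = 0.168, adjusted p = 0.198) with rho = -0.17 (permutation p = 0.354, adjusted p = 0.393). These values depend on the scaling. With median-of-ratios scaling r with the cortical score was -0.61 for Hdac2, 0.41 for Hdac3, 0.42 for Hdac1, 0.50 for Hdac4 and 0.80 for Hdac7.

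With the striatal score Hdac1, Hdac3 and Hdac7 had correlations of the opposite sign. Hdac3 had r = -0.71 (permutation p = 0.00054, adjusted p = 0.00467) with rho = -0.61 (permutation p = 0.00098, adjusted p = 0.0049). Hdac1 had r = -0.67 (permutation p = 0.00695, adjusted p = 0.0174) with rho = -0.68 (permutation p = 0.00013, adjusted p = 0.00107). Hdac7 had r = -0.65 (permutation p = 0.00693, adjusted p = 0.0174) with rho = -0.73 (permutation p = 0.00016, adjusted p = 0.00107). Without the 2 farthest mice these were -0.44, -0.83 and -0.66, and in the 23 mice of the other groups -0.64 (permutation test, adjusted p = 0.0078), -0.57 (permutation test, adjusted p = 0.0594) and -0.74 (permutation test, adjusted p = 0.0078). Hdac4, at r = -0.25 over all mice (permutation p = 0.413, adjusted p = 0.434), was at -0.50 in these 23 mice (permutation test, adjusted p = 0.0377). Hdac8 and Hdac5 had r = -0.54 (permutation p = 0.00258, adjusted p = 0.0103) and r = -0.49 (permutation p = 0.0015, adjusted p = 0.0075), with rho = -0.45 (permutation p = 0.0155, adjusted p = 0.0386) and rho = -0.37 (permutation p = 0.0344, adjusted p = 0.0687), but in the 23 other mice only -0.05 and -0.03. With median-of-ratios scaling they were -0.26 and -0.27. The relations of Hdac8 and Hdac5 therefore rest on the WT vehicle mice, whose striatal scores were the most spread. High cortical markers were found in 6 of 8 WT vehicle mice and in no Brd1+/- vehicle mouse, so under vehicle these markers and genotype cannot be told apart.

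**Figure D3:**
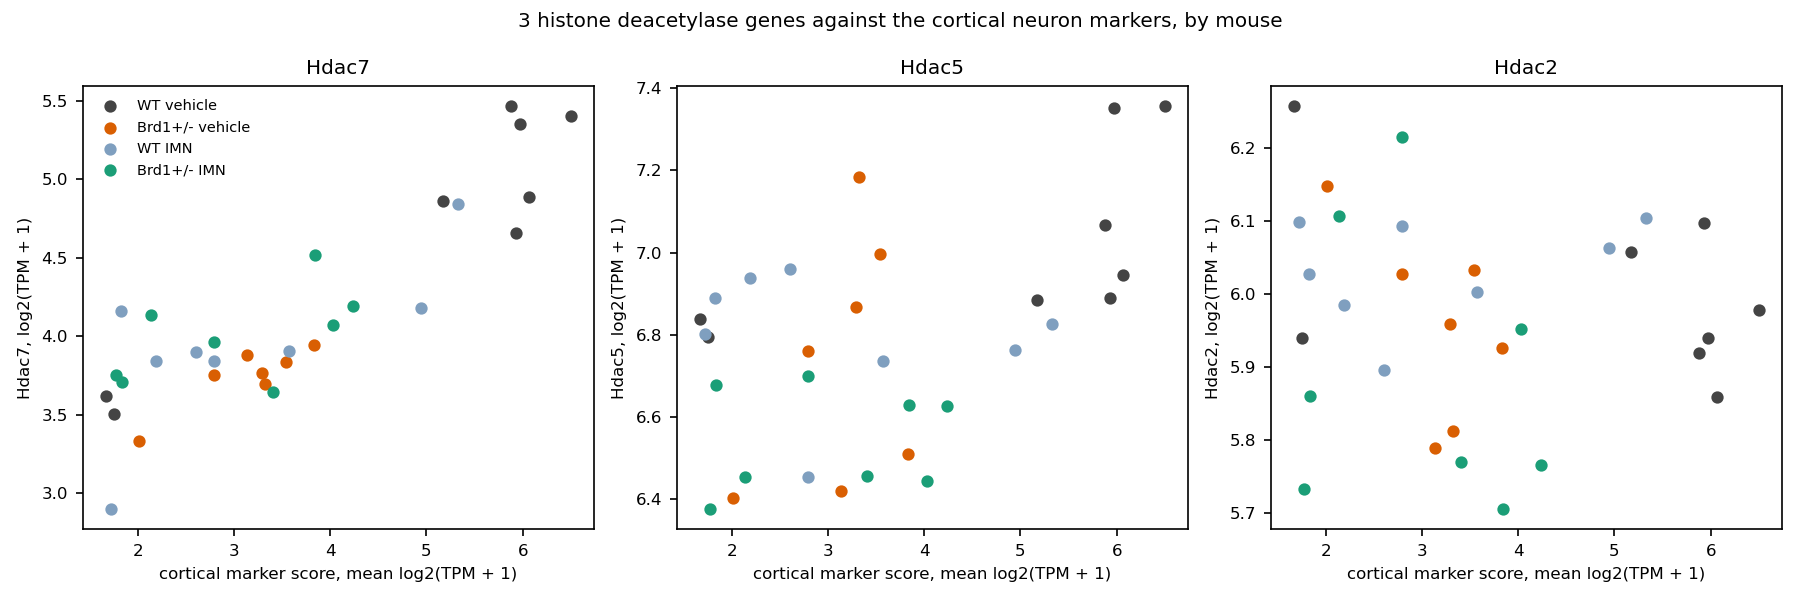
Log2(TPM + 1) of Hdac7, Hdac5 and Hdac2 (vertical axes) against the cortical marker score (horizontal axis, mean log2(TPM + 1) of 12 genes), with 1 point per mouse coloured by group. For Hdac7 the WT vehicle mice form 6 points at the upper right and 2 at the lower left. Within the other groups its r was 0.89 (Brd1+/- vehicle), 0.72 (WT IMN) and 0.55 (Brd1+/- IMN), and slopes were not compared. Hdac2 has no upward slope, with r = -0.25, or -0.61 with median-of-ratios scaling.

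**Figure D4:**
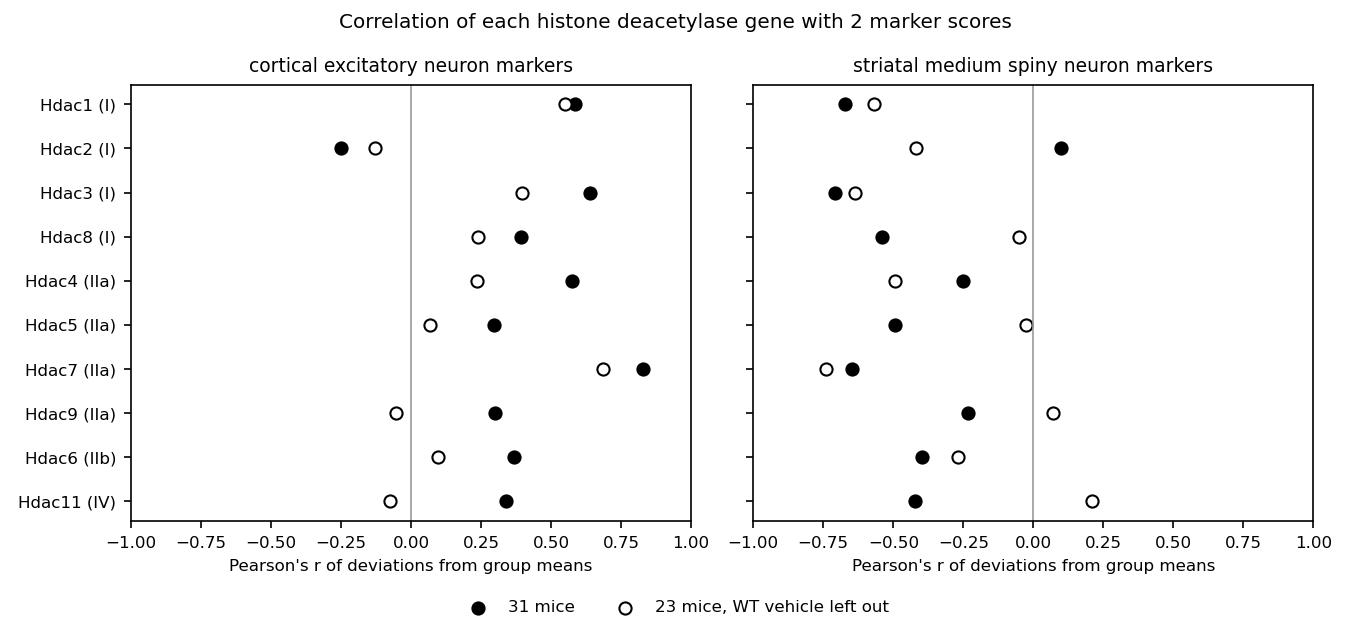
Pearson's r (horizontal axis, -1 to 1) of each gene with the cortical (left) and striatal (right) marker score, on deviations from group means, with filled points for 31 mice and open points for the 23 mice that are not WT vehicle. Hdac7 keeps its place without WT vehicle mice on both sides (0.68 and -0.74), and Hdac5 and Hdac8 move to near 0 for the striatal score.

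Across the 31 mice the 10 genes were compared with each other. The closest pair was Hdac3 and Hdac7 (r = 0.82, or 0.71 on deviations from group means), followed by Hdac1 and Hdac7 (0.73 and 0.59) and Hdac3 and Hdac4 (0.70 and 0.64). Hdac2 stood apart from its class I partner Hdac1 (r = -0.02) and from Hdac7 (r = -0.09). These are descriptions of mice that share tissue composition and group, and no test was made. Among 17391 genes with a mean of at least 1 TPM, those most like each gene were named. For Hdac1 they were Ssh1 (r = 0.86) and Gm10093 (0.85), its processed copy, where reads can be assigned to either. They were Slc25a14 and Srsf7 (0.75 each) for Hdac2, Snx32 and Kifc2 (0.93 each) for Hdac3 and Zfp606 (0.73) and Copz2 (0.72) for Hdac8. In class IIa they were Ppp2r2b and Sorcs3 (0.87 each) for Hdac4, Ssr2 (0.82) and E2f4 (0.80) for Hdac5, Gm5620 (0.94) and Hmgb1-ps1 (0.93) for Hdac7, and Gm42656 and Osbpl6 (0.72 each) for Hdac9. For Hdac6 they were Trit1 (0.75) and Insl5 (0.70), and for Hdac11 Gstz1 (0.73) and Olfm2 (0.70).

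The genes that work with or against the deacetylases were counted in 8 lists, of which 87 of 88 genes were tested. Under vehicle, 15 were lower in Brd1+/- mice at p under 0.01, and 0 higher, 17.2% of the 87 against the 13.6% of all genes given above. With median-of-ratios scaling 9 were lower and 5 higher, where 9.19% of all genes were called in either direction. The NuRD complex, the nucleosome remodelling complex around Hdac1 and Hdac2, had 4 of 13 lower (2 lower and 1 higher after scaling), among them Cdk2ap1 (-0.63 ± 0.15, SE, limma, adjusted p = 0.0556), Chd5, a remodeller of neurons (-0.90 ± 0.26, SE, limma, adjusted p = 0.0556) and Gatad2a (-0.66 ± 0.20, SE, limma, adjusted p = 0.06). Class IIa partners had 7 of 23 lower (4 lower and 2 higher after scaling), and these were 14-3-3 proteins and calcium/calmodulin-dependent kinases, led by Ywhaq (-0.80 ± 0.19, SE, limma, adjusted p = 0.0556), Ywhah (-1.07 ± 0.26, SE, limma, adjusted p = 0.0556) and Ywhag (-0.78 ± 0.20, SE, limma, adjusted p = 0.0556).

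The Sin3 complex had 2 of 15 lower, Ing1 (-0.74 ± 0.20, SE, limma, adjusted p = 0.0556) and Sap30 (-0.65 ± 0.20, SE, limma, adjusted p = 0.0586), the CoREST complex 1 of 10, Rcor2 (-0.88 ± 0.19, SE, limma, adjusted p = 0.0556), and the NCoR/SMRT complex around Hdac3 1 of 6, Coro2a (-1.21 ± 0.28, SE, limma, adjusted p = 0.0556). Of the mitotic deacetylase complex (MiDAC) 0 of 3, of the sirtuins, the NAD-dependent class III deacetylases, 0 of 7, and of the histone acetyltransferases 0 of 12 passed p under 0.01. With median-of-ratios or quantile scaling Sin3 had 1 lower, CoREST 1 lower and 1 higher, NCoR/SMRT 1 lower and MiDAC 1 higher, and sirtuins and acetyltransferases had 0. Under IMN, 0 of the 87 genes passed p under 0.01 in limma between the genotypes, against 0.703% of all genes. For IMN against vehicle in WT mice 7 were lower and 1 higher, 9.20% of the 87 against 6.95% of all genes. They were 6 lower and 4 higher with median-of-ratios scaling (6.01% of all genes). With quantile normalization they were 2 lower and 6 higher (5.84% of all genes), so the direction depends on the scaling. The 3 with the smallest p were Prkd2 (-0.58 ± 0.18, SE), Ywhab (-0.30 ± 0.09, SE) and Prkd1, a kinase of class IIa enzymes (0.51 ± 0.13, SE, limma, adjusted p = 0.141). In Brd1+/- mice 3 were higher, 3.45% of the 87 against 1.83% of all genes, a count that both scalings also gave (1.99% and 2.00% of all genes). As deposited these were the acetyltransferases Kat6b (0.35 ± 0.10, SE, limma, adjusted p = 0.408) and Kat2b (0.39 ± 0.12, SE, limma, adjusted p = 0.517), and Mta3 of NuRD (0.24 ± 0.08, SE, limma, adjusted p = 0.538). Over all 31 mice, 17 of the 87 were lower for genotype, 19.5% against 10.1% of all genes. There were 6 lower and 2 higher with median-of-ratios scaling (5.64% of all genes) and 8 and 2 with quantile normalization (5.74%). As deposited the 17 were led by Coro2a (-0.75 ± 0.19, SE), Sap30 (-0.44 ± 0.12, SE) and Ywhag (-0.48 ± 0.13, SE). For IMN 7 were lower and 1 higher, 9.20% of the 87 against 5.49% of all genes. There were 5 and 5 with median-of-ratios scaling (5.14% of all genes) and 2 and 8 with quantile normalization (4.89%). Those called as deposited were led by Ywhab (-0.20 ± 0.06, SE), Ywhaz (-0.18 ± 0.05, SE) and Prkd2 (-0.42 ± 0.13, SE). The interaction had 3 higher and 1 lower, 4 of the 87 against 3.74% of all genes, led by Rcor2 (0.82 ± 0.24, SE), Ing1 (0.72 ± 0.23, SE) and Cdk2ap1 (0.65 ± 0.22, SE). It had 2 higher and 1 lower with median-of-ratios scaling (3.17% of all genes) and with quantile normalization (3.39%).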

How the data were processed

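RNA of 31 CPu samples was sequenced as single-end reads on the BGISEQ-500, and per the study's methods and the submitters' processing notes the authors used FastQC, Trimmomatic, HISAT2 2.1.0 and StringTie 1.3.4 with GRCm38. The deposited values are TPM per gene, already scaled by the authors for gene length and library total, so counts and read depth were not used here. The study tested counts with edgeR, and since counts were not analysed here, limma 3.58.1 (R 4.3.3) was fitted to log2(TPM + 1) with a trend, two-sided, restricted to genes that exceeded 0.1 TPM in 7 or more mice of the fit, with Benjamini-Hochberg adjustment over all of them. A TPM scale has a fixed sum, so a few abundant genes can shift all others, and median-of-ratios and quantile scaling were run beside it. Pairs of groups were fitted alone, and genotype, IMN and their interaction over all 31 mice. Exact permutation tests used every regrouping of the mice. All 10 deacetylases are named in every comparison, with up to 3 related genes of the smallest p under 0.01, and further related genes under vehicle were named after their values were seen. The members and lists were chosen with earlier results of these data known. Scripts were tested on simulated data. Alternatives are given in the closing section, and leaving out WT vehicle mouse 2 in the fits over all mice was chosen after seeing the data.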

Additional observations from a re-analysis of the deposited data

Results flagged for a closer look

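Hdac8 in WT IMN mouse 8 was at 10.9 TPM, far from the other 7 mice of its group, which lay between 7.36 and 8.83 TPM. It was the 1 such value among 40 groups of mice examined, and chance gives about 1 in 20. For Hdac7 the interaction of genotype and IMN was 1.03 on the log2(TPM + 1) scale, which passed p under 0.01, as 3.74% of all genes did, but not an FDR of 5% (limma, adjusted p = 0.261). Of the 8 WT vehicle mice 5 were above every WT IMN mouse, and of the 8 Brd1+/- IMN mice 5 were above every Brd1+/- vehicle mouse. The cortical marker score was above 5 in 6 WT vehicle mice and in WT IMN mouse 5, which had the highest Hdac7 of its group. WT IMN mouse 8, with a cortical score of 4.95, had Hdac7 at 17.1 TPM, close to WT IMN mouse 4 at 16.9 TPM with a score of 1.83. The interaction did not pass p under 0.01 with this score as a covariate, at 0.52 (limma, adjusted p = 0.808), with the striatal score, at 0.49 (limma, adjusted p = 0.999), or without WT vehicle mouse 2, at 0.93 (limma, adjusted p = 0.366).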

How the results depend on the processing

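Over the alternatives other than leaving out a mouse, 678 values of the 10 genes kept their direction and side of p under 0.01, 39 lost and 18 gained a call, and 45 changed sign. The shares in brackets are those of all genes called in the same fit. The number of the 10 genes called under vehicle (3) was 1 with quantile normalization (9.52%), 6 with sample quality weights (26.5%) and 5 with all 4 groups in one fit (19.7%). It was 0 with the cortical (2.23%) or striatal marker score (1.47%), and 2 to 5 with a mouse left out (8.89% to 22.4%). Under IMN it was 0 instead of 1 with median-of-ratios scaling (0.673%), quantile normalization (0.694%), the replicate block (0.673%) or all 4 groups (0.512%). It was 1 to 2 with a mouse left out (0.55% to 1.09%). For IMN in WT mice it was 3 with weights (20.3%), 2 with all 4 groups (13.5%) and 0 to 2 with a mouse left out (3.88% to 15.3%). For IMN in Brd1+/- mice it was 1 with quantile normalization (2.00%) or the replicate block (2.15%), and 0 to 1 with a mouse left out (1.34% to 2.18%). It was also 1 with the exact permutation test, which was not run over all genes and so has no share. For genotype over both treatments it was 1 with median-of-ratios scaling (5.64%) or the cortical (3.80%) or striatal marker score (2.31%) and 0 with quantile normalization (5.74%). For IMN over both genotypes it was 0 with median-of-ratios scaling (5.14%), quantile normalization (4.89%), weights (5.59%), the replicate block (4.90%), the cortical (2.72%) or striatal marker score (3.20%) or without WT vehicle mouse 2 (4.40%). For the interaction it was 3 with weights (13.6%) and 0 with the cortical (1.10%) or striatal marker score (0.52%) or without WT vehicle mouse 2 (2.39%). At an FDR of 5% the replicate block gave 4 of 10 and 15.4% of all genes under vehicle, and weights gave 2 of 10 and 10.3% for the interaction. WT vehicle mouse 8 has no same-numbered Brd1+/- vehicle mouse, so the block in effect left it out. Leaving out that mouse without a block gave 5 of 10 and 23.8%, so the effects of both changes cannot be told apart. Brd1+/- IMN mouse 8 likewise has no same-numbered Brd1+/- vehicle mouse. The causes were not tested. Mouse numbers did not pair the mice (median correlation of same-numbered mice 0.018, of others -0.009). Without leaving out a mouse, the count over all genes moved as well, between 340 and 6137 for genotype under vehicle, 97 and 233 for genotype under IMN, 310 and 4798 for IMN in WT mice, 296 and 521 for IMN in Brd1+/- mice, 587 and 2690 for genotype over both treatments, 690 and 1470 for IMN over both genotypes, and 132 and 3458 for the interaction, and with a mouse left out it was 2036 to 5154 under vehicle, 127 to 252 under IMN (the highest without WT IMN mouse 2) and 905 to 3576 for IMN in WT mice, the highest in both others without WT vehicle mouse 8.

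Sign changes were these, on the log2(TPM + 1) scale. With median-of-ratios scaling the values were 0.14 for Hdac2 and 0.026 for Hdac6 under vehicle, 0.027 for Hdac3 under IMN, 0.043 for Hdac8 and 0.094 for Hdac6 for IMN in WT mice, 0.015 for Hdac2 for genotype over both treatments, 0.037 for Hdac2 and 0.031 for Hdac6 for IMN over both genotypes and -0.11 for Hdac5 and -0.13 for Hdac6 in the interaction. With quantile normalization the values were 0.15 for Hdac2 and 0.035 for Hdac6 under vehicle, 0.024 for Hdac3 under IMN, 0.066 for Hdac8 and 0.11 for Hdac6 for IMN in WT mice, 0.021 for Hdac2 for genotype over both treatments, 0.068 for Hdac2 and 0.044 for Hdac6 for IMN over both genotypes and -0.14 for Hdac5 and -0.14 for Hdac6 in the interaction. With the cortical marker score the values were 0.045 for Hdac6 under vehicle, -0.00052 for Hdac2 and 0.019 for Hdac8 and 0.15 for Hdac4 and 0.20 for Hdac6 for IMN in WT mice, 0.068 for Hdac1 and 0.072 for Hdac4 and 0.051 for Hdac7 and 0.053 for Hdac6 for IMN over both genotypes and -0.017 for Hdac4 and -0.042 for Hdac5 and -0.14 for Hdac6 in the interaction. With the striatal marker score the values were 0.032 for Hdac6 under vehicle, -0.0024 for Hdac2 and 0.061 for Hdac8 and 0.15 for Hdac6 for IMN in WT mice, -0.038 for Hdac3 and -0.20 for Hdac4 and 0.13 for Hdac9 for IMN in Brd1+/- mice, 0.069 for Hdac1 and 0.046 for Hdac6 for IMN over both genotypes and -0.14 for Hdac5 and -0.20 for Hdac6 in the interaction. With sample quality weights the values were 0.013 for Hdac1 and 0.0070 for Hdac6 for IMN over both genotypes. With a mouse left out, the ranges that crossed 0 were -0.049 to 0.018 for Hdac3 under IMN, -0.098 to 0.18 for Hdac7 under IMN, -0.0049 to 0.12 for Hdac11 under IMN, -0.13 to 0.037 for Hdac6 for IMN in WT mice, -0.0096 to 0.070 for Hdac3 for IMN in Brd1+/- mice, -0.049 to 0.16 for Hdac4 for IMN in Brd1+/- mice, -0.28 to 0.047 for Hdac9 for IMN in Brd1+/- mice, -0.15 to 0.056 for Hdac6 for IMN in Brd1+/- mice, -0.017 to 0.049 for Hdac5 in the interaction and -0.022 to 0.021 for Hdac6 in the interaction. The correlation of Hdac5 with the cortical score was -0.0068 with median-of-ratios scaling.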
